A study of Homo sapiens with 9 samples.

Results

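The 10 genes described here make, stabilise or degrade the RNA of mitochondria, or are that RNA. They are MT-RNR1 and MT-RNR2, the 2 ribosomal RNAs (rRNAs) encoded on chromosome MT, and 8 nuclear genes, POLRMT, TFAM, TFB2M, LRPPRC, SLIRP, MTPAP, PNPT1 and SUPV3L1. They were chosen by name for these functions, with no threshold on a value. The names were proposed with results of these data known, and which values led to them is not recorded, so their differences between treatments are given as values with a standard error and without a test. All 10 were found among the 27615 genes of the longest gene list. MT-RNR1, MT-RNR2, POLRMT, TFAM, LRPPRC, SLIRP and PNPT1 belong to the 4237 genes listed for all 9 libraries. TFB2M, MTPAP and SUPV3L1 are not listed for rimonabant replicate 1, where they are missing and not 0, and so have 2 rimonabant values.

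RNA was sequenced from MDA-MB-231 cells, an established human triple-negative breast cancer line, after treatment with DMSO as vehicle, with rimonabant or with TXX-1-10, with 3 libraries in each group. Rimonabant blocks CB1, a cannabinoid receptor, and is the parent compound of TXX-1-10. All 3 groups used this single cell line, and the dose and duration in the sequenced cells are not given in the sources used here, so whether the compounds were used at matched doses is unknown. Polyadenylated RNA was captured on oligo(dT) beads. A level here, of an rRNA or of an mRNA of chromosome MT, is thus the level that passed this capture and not the total in the cells.

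The library total behind each value was worked back from count, FPKM and gene length. It was 17078370 to 17245379 for vehicle, 17477838 to 18813662 for rimonabant and 18394759 to 19277808 for TXX-1-10. It is not the sum of the counts, since the listed counts of vehicle replicates 1 and 3 (17492638 and 17383157) exceeded it. TXX-1-10 replicate 2, with 16836181 counts over 24304 listed genes, was below its total of 18394759. The scale of every comparison between groups rests on this total. The level of a gene is given as FPKM, the count scaled by gene length and by this total, which the authors deposited beside the raw count. Defining markers of the line were present in all 9 libraries (VIM at 224 to 329 FPKM, AXL at 124 to 221 FPKM), while the oestrogen and progesterone receptor genes ESR1 and PGR stayed at or under 0.0459 FPKM wherever they were listed and the E-cadherin gene CDH1 was listed at 0. EPCAM, another epithelial marker thought to be low in the line, was at 4.47 to 5.37 FPKM in the 7 libraries that list it. Of the 8 markers of leukocytes, endothelium and fibroblasts, the highest level was 0.798 FPKM, for COL1A1, and CD3E was not listed. Rimonabant replicate 1 and TXX-1-10 replicate 3 stood apart from the other libraries of their groups, with more reads on short genes and fewer on long ones (Spearman rho with gene length of -0.69 in each, across genes, which are not independent replicates). Values of the rRNAs, TFB2M, SLIRP, PNPT1 and the mRNAs of chromosome MT are also given without the library concerned where it mattered.

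Human mitochondrial DNA is transcribed from both strands as long precursors, in which the 2 rRNAs come first on the heavy-strand transcript and the messenger RNAs (mRNAs) follow, with transfer RNAs (tRNAs) between them that are cut out to release each RNA. POLRMT is the RNA polymerase that does this, and it starts at the promoters together with TFAM and TFB2M. Most of the mature mRNAs are bound and held stable by the LRPPRC and SLIRP complex and get poly(A) tails from MTPAP. The mRNAs are degraded by the exonuclease PNPase (the product of PNPT1) with the helicase SUV3 (the product of SUPV3L1).

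MT-RNR1, the 12S rRNA of the small mitochondrial ribosomal subunit (ENSG00000211459), covers positions 648 to 1601 of chromosome MT on the + strand in GRCh38. MT-RNR2, the 16S rRNA of the large subunit (ENSG00000210082), covers positions 1671 to 3229 on the same strand. Their own adenosine runs are shown because the libraries were made with oligo(dT). The longest run was 6 in MT-RNR1 and 7 in MT-RNR2, and adenosine made up 33.0% and 35.1% of their bases. Among the 13 mRNAs of chromosome MT, the longest run was between 3 and 8 bases and the adenosine share between 19.6% and 38.6%, so both rRNAs were within the range of the mRNAs in these features. Runs of 6 or more adenosines were more frequent in MT-RNR2, which holds 4, than in MT-RNR1, which holds 1, or in any of the mRNAs, which hold 0 to 2. The 60 bases around each run are given 5′ to 3′ from the GENCODE 29 transcripts, at chrMT:966-1025 (+) for MT-RNR1 and chrMT:2430-2489 (+) for MT-RNR2, with the run in capitals.
MT-RNR1: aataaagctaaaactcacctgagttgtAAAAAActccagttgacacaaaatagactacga
MT-RNR2: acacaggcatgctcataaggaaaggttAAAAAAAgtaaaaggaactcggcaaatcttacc

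The rRNAs were higher under both compounds than under vehicle, and they parted from each other under TXX-1-10. MT-RNR1 was at 885, 851 and 803 FPKM in the 3 vehicle libraries, at 1527, 1259 and 1254 FPKM with rimonabant and at 2117, 2101 and 2562 FPKM with TXX-1-10. No 2 groups overlapped, with vehicle lowest and TXX-1-10 highest. The group means were 846 ± 41 FPKM (SD, n = 3), 1347 ± 156 and 2260 ± 261. In the edgeR fit of all 9 libraries the log2 fold change was 1.42 (SE 0.10) for TXX-1-10 against vehicle, which is 2.67-fold, and 0.67 (SE 0.10) for rimonabant against vehicle, which is 1.59-fold. TXX-1-10 stood above rimonabant by 0.75 (SE 0.10) on the log2 scale. In bulk RNA, less of an RNA in each cell and fewer cells that hold it cannot be told apart, and every level is relative to its library total.

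MT-RNR2 was at 4492, 4218 and 3990 FPKM with vehicle, at 6367, 5702 and 5642 FPKM with rimonabant and at 5878, 5781 and 6755 FPKM with TXX-1-10. All 6 treated libraries were above all vehicle libraries, and the 2 compounds overlapped each other. On the log2 scale the difference was 0.54 (SE 0.09) for TXX-1-10 against vehicle and 0.48 (SE 0.09) for rimonabant against vehicle. Between the compounds it was 0.06 (SE 0.09). It changed sign to -0.02 without TXX-1-10 replicate 3 alone, and was 0.11 without rimonabant replicate 1 alone and 0.04 without both. Rimonabant replicate 1 and TXX-1-10 replicate 3, the libraries with more reads on short genes, had the highest value of their group for both rRNAs. Without these 2 libraries the log2 fold changes against vehicle were 1.32 for MT-RNR1 and 0.46 for MT-RNR2 with TXX-1-10, and 0.57 and 0.42 with rimonabant.

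**Figure D1:**
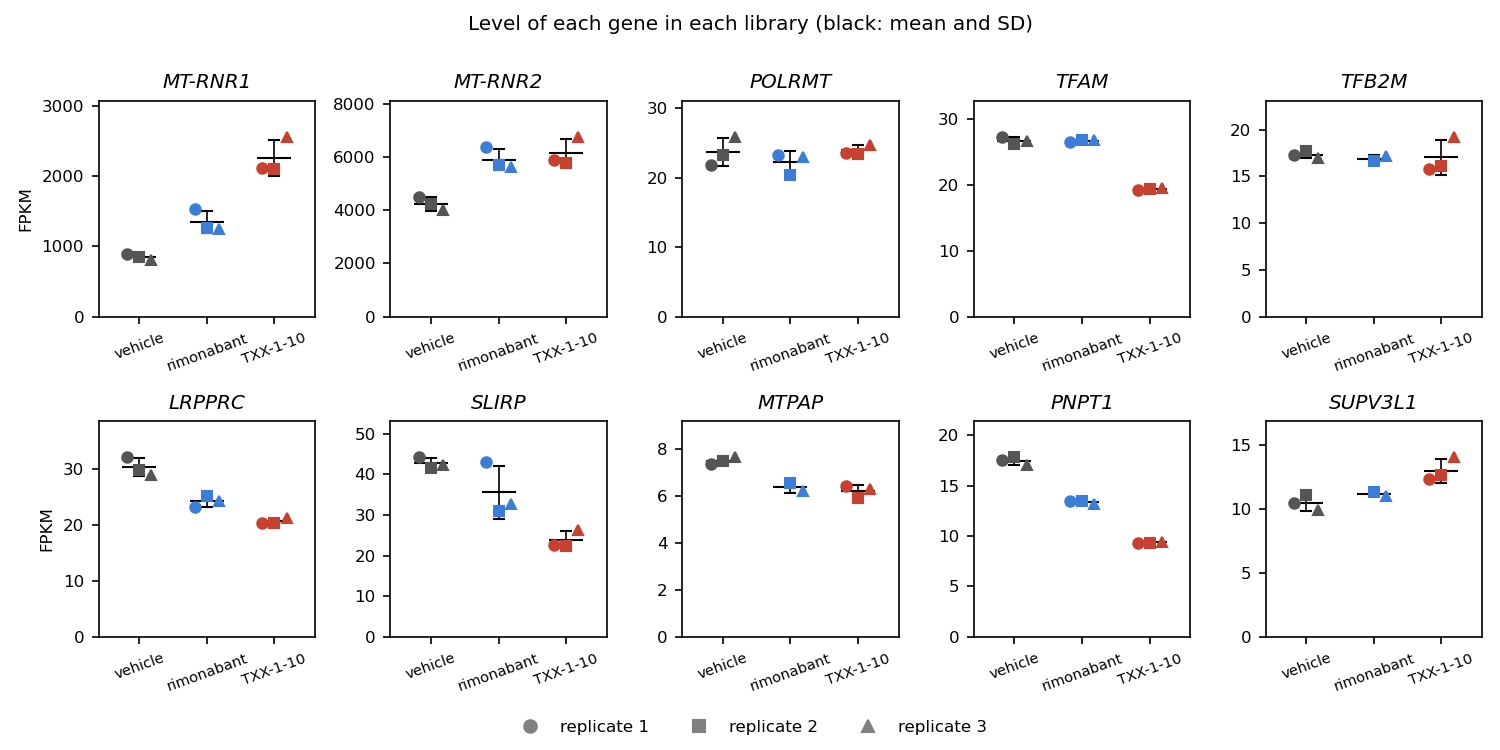
FPKM (linear axis from 0) of each of the 10 genes in each library, by treatment, with the replicate as the symbol and the group mean and SD in black. MT-RNR1 is lowest with vehicle and highest with TXX-1-10, PNPT1 and LRPPRC show the reverse order, and POLRMT and TFB2M overlap between vehicle and both compounds.

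Because they lie side by side on the same precursor, the rRNAs were also compared as a ratio within each library, which does not depend on the library total. The ratio of MT-RNR1 FPKM to MT-RNR2 FPKM was 0.197, 0.202 and 0.201 with vehicle, 0.240, 0.221 and 0.222 with rimonabant and 0.360, 0.363 and 0.379 with TXX-1-10. The 3 groups did not overlap, and the step from rimonabant to TXX-1-10 was larger than the step from vehicle to rimonabant. Ranks by level depend on the other genes as well. MT-CO1, MT-CO2, MT-CO3, MT-ATP6, MT-ND3, MT-ND4L and MT-ND4 had vehicle means of 5633 to 8811 FPKM, above MT-RNR2 (4233 FPKM). With TXX-1-10 their means were 1973 to 2814 FPKM, below MT-RNR2 (6138 FPKM), so the ranks below do not reflect the rRNAs alone. Among the 4237 genes listed for all libraries, MT-RNR2 ranked 9 by level in each vehicle library. It ranked 6 in each rimonabant library and 1 in each TXX-1-10 library. MT-RNR1 moved from ranks 24 to 27 with vehicle to ranks 8 to 9 with TXX-1-10.

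The mRNAs encoded downstream of the rRNAs did not share this pattern. With TXX-1-10 against vehicle, 11 of the 13 mRNAs of chromosome MT fell, 1 rose and 1 did not pass edgeR's quasi-likelihood test at a Benjamini-Hochberg adjusted p of 0.05 over all 4236 genes tested, where 30.5% of all genes rose and 43.8% fell by this rule. The median log2 fold change of the 13 was -1.51, beside -0.09 for all genes tested. MT-CO1, a catalytic subunit of cytochrome c oxidase, went from 8811 ± 110 FPKM to 2096 ± 139 (log2 fold change -2.07, SE 0.08, adjusted p = 5.76e-09). MT-CO2, another core subunit of that enzyme, fell by 2.03 on the log2 scale (adjusted p = 5.87e-08), and MT-CYB, the cytochrome b of complex III, fell by 1.64 (adjusted p = 1.30e-08). MT-ND4, a complex I subunit, fell by 1.51 (adjusted p = 2.66e-08).

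The mRNAs nearest to the rRNAs had smaller differences. MT-ND1, the first mRNA after MT-RNR2, fell by 0.61 (adjusted p = 3.66e-05), and MT-ND2, the second, had a log2 fold change of -0.08 (SE 0.08, adjusted p = 0.401). MT-ATP8, a small subunit of ATP synthase, rose by 0.24 (adjusted p = 0.00125), while MT-ATP6, which overlaps it on the same strand, fell by 1.45 (adjusted p = 8.99e-08). Reads in the shared stretch of such overlapping genes can be split or dropped by the counting, so MT-ATP8 is uncertain. MT-ND6, the mRNA of the opposite strand, fell by 1.57 (adjusted p = 1.08e-07). The strand setting of the counting is not given in the sources used here, so reads of the other strand may be included in MT-ND6.

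With rimonabant most of the mRNAs did not pass the test. Against vehicle, 3 of the 13 fell (MT-CO1, MT-ATP8 and MT-ND4L), 0 rose and 10 did not pass, with a median log2 fold change of -0.12 beside -0.02 for all genes, of which 23.7% rose and 25.2% fell. MT-ND4L, a complex I subunit that overlaps MT-ND4, had a log2 fold change of -0.32 (SE 0.12, adjusted p = 0.0406). These calls rest in part on rimonabant replicate 1. In the fit of the 8 other libraries 3 again fell, but they were MT-CO1 (log2 fold change -0.26, adjusted p = 0.0137), MT-CO3 (-0.31, adjusted p = 0.0136) and MT-ND3 (-0.30, adjusted p = 0.0184), while MT-ATP8 (adjusted p = 0.0911) and MT-ND4L (-0.20, adjusted p = 0.0753) did not pass. Between the compounds, 11 of the 13 were lower and 1 higher with TXX-1-10 than with rimonabant past the test, beside 39.4% and 25.1% of all genes, and the median log2 fold change was -1.36.

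**Figure D2:**
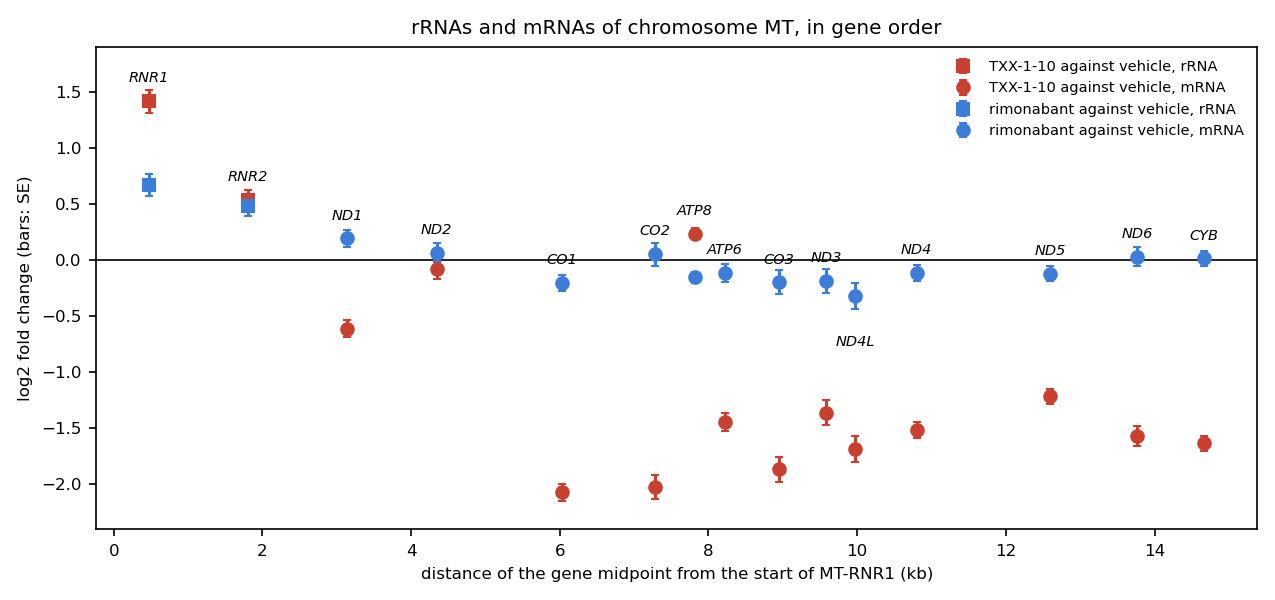
log2 fold change against vehicle (bars: SE) of the 2 rRNAs (squares) and the 13 mRNAs (circles) of chromosome MT, by the distance of the gene midpoint from the start of MT-RNR1 in kb, for TXX-1-10 (red) and rimonabant (blue). With TXX-1-10 both rRNAs and MT-ATP8 lie above 0 and the other mRNAs below it, and with rimonabant the mRNAs lie between -0.32 and 0.19.

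Set against the mRNAs of the same chromosome, rRNA took a different share in each group. For every 100 counts on the 13 mRNAs there were 13.8, 13.1 and 12.6 rRNA counts with vehicle, 20.0, 20.1 and 19.9 with rimonabant and 56.1, 56.9 and 59.1 with TXX-1-10. The groups did not overlap, and the SD was 0.578 with vehicle, 0.105 with rimonabant and 1.54 with TXX-1-10. Of all counts on chromosome MT, rRNA took 11.6% ± 0.447 (SD, n = 3) with vehicle, 16.6% ± 0.0721 with rimonabant and 36.3% ± 0.609 with TXX-1-10. As a share of the library total worked back from FPKM, which is not the sum of the counts, rRNA was 0.741% ± 0.0431, 1.05% ± 0.0775 and 1.17% ± 0.108. On the same scale the 13 mRNAs were 5.63% ± 0.083, 5.26% ± 0.389 and 2.04% ± 0.136. The large rRNA ratio with TXX-1-10 thus came with both a higher rRNA share and a lower mRNA share of this total. A search by name for nuclear gene copies of the rRNAs found MTRNR2L8, MTRNR2L3 and MTRNR2L12. Each was listed in 4 libraries, at 0.792 FPKM or less. Reads that match both MT-RNR2 and a copy may be dropped by the counting, so these levels do not show how many reads are shared.

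**Figure D3:**
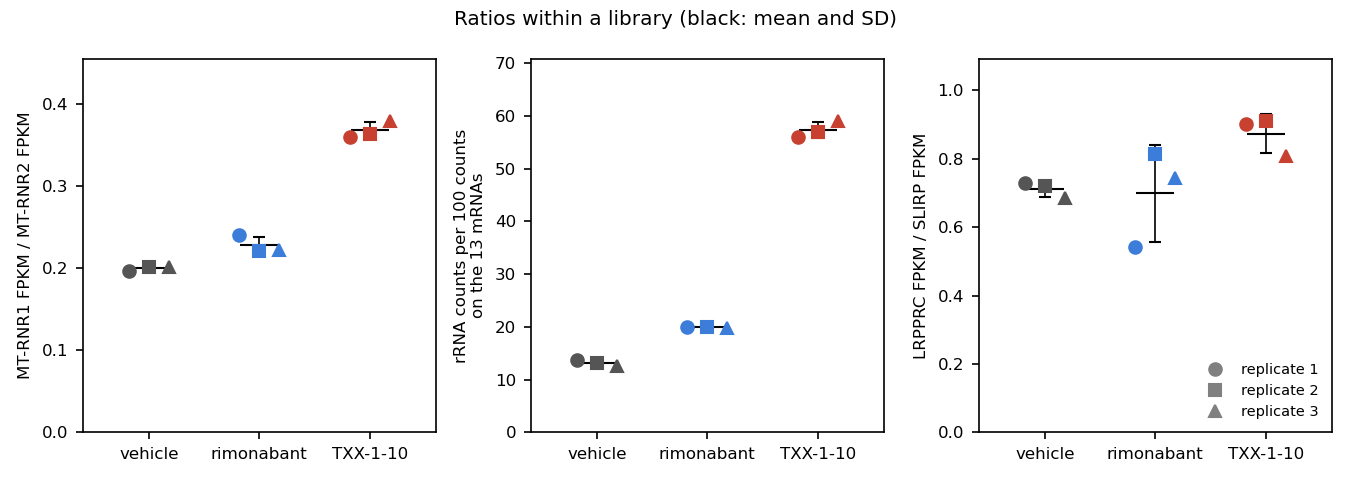
Ratios within each library by treatment (linear axes from 0, replicate as symbol, mean and SD in black) for MT-RNR1 FPKM over MT-RNR2 FPKM, rRNA counts per 100 counts on the 13 mRNAs, and LRPPRC FPKM over SLIRP FPKM. The first 2 ratios separate the 3 groups, and the third does not, with rimonabant replicate 1 at 0.541 below all other libraries.

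Of the genes that start transcription, TFAM was lower with TXX-1-10 and the polymerase and its other partner overlapped between vehicle and each compound. TFAM (chr10:58385022-58399221, + strand), which packages mitochondrial DNA and bends the promoters, was at 27.3, 26.2 and 26.6 FPKM with vehicle, 26.4, 26.7 and 26.8 with rimonabant and 19.1, 19.3 and 19.5 with TXX-1-10. The TXX-1-10 libraries lay below the other 6, which overlapped. The log2 fold change was -0.47 (SE 0.04) for TXX-1-10 against vehicle, and the same against rimonabant, and -0.00 (SE 0.04) for rimonabant against vehicle. With library sizes taken from the fitted genes alone, TXX-1-10 against vehicle was -0.29.

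POLRMT (chr19:617224-633604, - strand) was at 21.9, 23.3 and 25.9 FPKM with vehicle, 23.3, 20.3 and 23.0 with rimonabant and 23.6, 23.5 and 24.8 with TXX-1-10. Vehicle spanned the whole TXX-1-10 group and most of the rimonabant group. Against vehicle the log2 fold change was 0.02 (SE 0.07) for TXX-1-10 and -0.09 (SE 0.07) for rimonabant, and TXX-1-10 was above rimonabant by 0.11 (SE 0.07) with no overlap of their libraries. TFB2M (chr1:246540560-246566324, - strand), which melts the promoter for POLRMT, was at 17.3, 17.7 and 16.9 FPKM with vehicle, 16.6 and 17.2 with rimonabant and 15.8, 16.1 and 19.2 with TXX-1-10. All groups overlapped, and the log2 fold changes in the fit of the 8 other libraries were -0.02 (SE 0.08) and -0.03 (SE 0.09) against vehicle. The overlap of TXX-1-10 rested on its replicate 3 (19.2 FPKM), as its other libraries lay below all vehicle and rimonabant libraries. Without that library, TXX-1-10 against vehicle was -0.12 (SE 0.07). The ratio of TFAM FPKM to POLRMT FPKM was 1.13 ± 0.109 (SD, n = 3) with vehicle, 1.21 ± 0.0976 with rimonabant and 0.807 ± 0.0198 with TXX-1-10.

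The promoters of TFAM and POLRMT are shown because these partners in 1 step of transcription differed in this way and both promoters hold the letters of the same motif. The window runs from 250 bases before to 50 bases after the gene start in RefSeq (GRCh38.p14), and both strands were searched for GCGCA and GCGC with any 1 base between them, the core that the nuclear respiratory factor NRF1 prefers, and for CCGGAAG, a core of ETS factors such as GABP. The NRF1 letters were in 6.98% of the 27305 promoters of that length in the table, in 14.5% of 69 other genes of mitochondrial gene expression and in 2 of the 8 nuclear members. The ETS letters were in 12.2%, 42.0% and again 2 of 8 (POLRMT and SLIRP). Capitals mark these matches in TFAM at chr10:58385160-58385459 (+), which holds 1 NRF1 match, and in POLRMT at chr19:633488-633787 (-), which holds 1 ETS match and 3 overlapping NRF1 matches. A match describes these letters and is no evidence of binding.
TFAM: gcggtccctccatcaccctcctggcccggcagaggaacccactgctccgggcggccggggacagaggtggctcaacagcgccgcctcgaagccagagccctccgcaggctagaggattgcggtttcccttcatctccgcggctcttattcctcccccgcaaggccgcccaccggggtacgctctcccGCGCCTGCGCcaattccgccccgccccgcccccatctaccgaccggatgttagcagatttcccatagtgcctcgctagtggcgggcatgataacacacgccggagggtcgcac
POLRMT: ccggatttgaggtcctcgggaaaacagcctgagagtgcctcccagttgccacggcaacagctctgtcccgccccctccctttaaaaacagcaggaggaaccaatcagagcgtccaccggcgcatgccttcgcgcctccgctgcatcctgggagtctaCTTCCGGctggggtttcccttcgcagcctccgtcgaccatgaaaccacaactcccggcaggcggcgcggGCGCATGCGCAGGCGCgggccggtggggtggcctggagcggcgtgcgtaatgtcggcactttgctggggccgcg

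The pair that stabilises mRNAs was lower under TXX-1-10. LRPPRC (chr2:43886508-43996005, - strand), the RNA-binding protein mutated in the French-Canadian form of Leigh syndrome, was at 32.2, 30.0 and 29.02 FPKM with vehicle, 23.2, 25.2 and 24.4 with rimonabant and 20.4, 20.4 and 21.2 with TXX-1-10. No groups overlapped, with vehicle highest and TXX-1-10 lowest. The log2 fold change was -0.56 (SE 0.05) for TXX-1-10 against vehicle, -0.33 (SE 0.05) for rimonabant against vehicle and -0.23 (SE 0.05) for TXX-1-10 against rimonabant, the last being -0.13 with library sizes taken from the fitted genes.

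SLIRP (chr14:77708071-77761104, + strand), the small partner of LRPPRC, was at 44.2, 41.7 and 42.4 FPKM with vehicle, 42.9, 31.0 and 32.7 with rimonabant and 22.6, 22.4 and 26.3 with TXX-1-10. TXX-1-10 lay below all other libraries, and rimonabant replicate 1 lay among the vehicle libraries while the other rimonabant libraries were between the groups. The log2 fold change was -0.85 (SE 0.12) for TXX-1-10 against vehicle, or 1.80-fold lower. For rimonabant against vehicle it was -0.27 (SE 0.11), and -0.42 without rimonabant replicate 1. The end of the annotated SLIRP gene overlaps C14orf178 on the same strand, whatever the strand setting. Most of the annotated span of SLIRP also overlaps SNW1 on the opposite strand (chr14:77717599-77761207). Whether the counting used strand is not given in the sources used here. SNW1, a splicing factor gene, had a log2 fold change of 0.19 (SE 0.06, adjusted p = 0.0183 by edgeR's quasi-likelihood test) for TXX-1-10 against vehicle, opposite in sign to SLIRP. The ratio of LRPPRC FPKM to SLIRP FPKM was 0.711 ± 0.0232 (SD, n = 3) with vehicle, 0.700 ± 0.142 with rimonabant and 0.874 ± 0.0578 with TXX-1-10.

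MTPAP (chr10:30309801-30374448, - strand), the poly(A) polymerase, was lower under both compounds by a similar amount. It was at 7.34, 7.48 and 7.63 FPKM with vehicle, 6.54 and 6.19 with rimonabant and 6.41, 5.90 and 6.27 with TXX-1-10. Every treated library was below every vehicle library, and the compounds overlapped. In the fit of 8 libraries the log2 fold change was -0.27 (SE 0.06) for TXX-1-10 and -0.23 (SE 0.06) for rimonabant against vehicle, and -0.04 (SE 0.06) between the compounds. With library sizes taken from the fitted genes, TXX-1-10 against vehicle was -0.14. The gene overlaps other annotated transcripts on both strands, among them GOLGA2P6 and an antisense RNA.

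With TXX-1-10, the 2 partners in RNA decay differed from vehicle in opposite directions. PNPT1 (chr2:55634265-55693910, - strand), the exonuclease, was at 17.6, 17.8 and 17.0 FPKM with vehicle, 13.5, 13.5 and 13.2 with rimonabant and 9.33, 9.32 and 9.44 with TXX-1-10. The groups did not overlap, and the spread within each was small beside the steps between them. The log2 fold change was -0.90 (SE 0.04) for TXX-1-10 against vehicle, which is 1.87-fold lower, and -0.38 (SE 0.04) for rimonabant against vehicle. TXX-1-10 was below rimonabant by a log2 difference of -0.52 (SE 0.04). PNPT1 and SLIRP had the lowest log2 fold changes of the 8 nuclear genes for TXX-1-10 against vehicle, and their order turned without TXX-1-10 replicate 3 (-0.91 for PNPT1 and -0.92 for SLIRP).

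SUPV3L1 (chr10:69180232-69209099, + strand), the helicase, was at 10.4, 11.1 and 9.87 FPKM with vehicle, 11.3 and 11.0 with rimonabant and 12.3, 12.6 and 14.0 with TXX-1-10. The TXX-1-10 libraries were above all others, and rimonabant overlapped vehicle. In the fit of 8 libraries the log2 fold change was 0.31 (SE 0.07) for TXX-1-10 and 0.10 (SE 0.08) for rimonabant against vehicle, and 0.22 (SE 0.08) between the compounds.

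Over all 10 genes with TXX-1-10 against vehicle, 3 were higher with no overlap of the groups (MT-RNR1, MT-RNR2 and SUPV3L1), 5 were lower (TFAM, LRPPRC, SLIRP, MTPAP and PNPT1) and 2 overlapped (POLRMT and TFB2M). Without overlap of the groups, 32.4% of all genes of the 9-library fit were higher and 46.3% lower (35.2% and 41.2% in the 8-library fit), so such a separation was common. MT-RNR1 alone of the 10 had a log2 fold change of 1 or more in size, as had 11.8% of all genes. For rimonabant against vehicle, 2 were higher, 3 lower and 5 overlapped, beside 29.7% and 31.5% of all genes that were higher and lower without overlap (36.5% and 35.8% with 2 rimonabant libraries), and 0 of the 10 had a log2 fold change of that size, beside 1.13% of all genes. Between the compounds, 3 were higher and 4 lower with TXX-1-10 and 3 overlapped, beside 24.8% and 38.8% of all genes (32.0% and 39.4% with 2 rimonabant libraries), and 0 had a log2 fold change of that size, beside 5.93% of all genes. Since the genes were proposed with these comparisons known, nothing is read from these counts.

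The 8 nuclear genes had a median log2 fold change of -0.37 for TXX-1-10 and -0.16 for rimonabant against vehicle, and -0.13 between the compounds. The median over all genes of the 9-library fit was -0.09, -0.02 and -0.08 in the same order. The 2 comparisons with vehicle share the vehicle libraries. Nothing in the labels says that the 3 libraries of a group came from separate cultures, so standard errors and p-values measure the spread between these libraries, which may be technical.

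**Figure D4:**
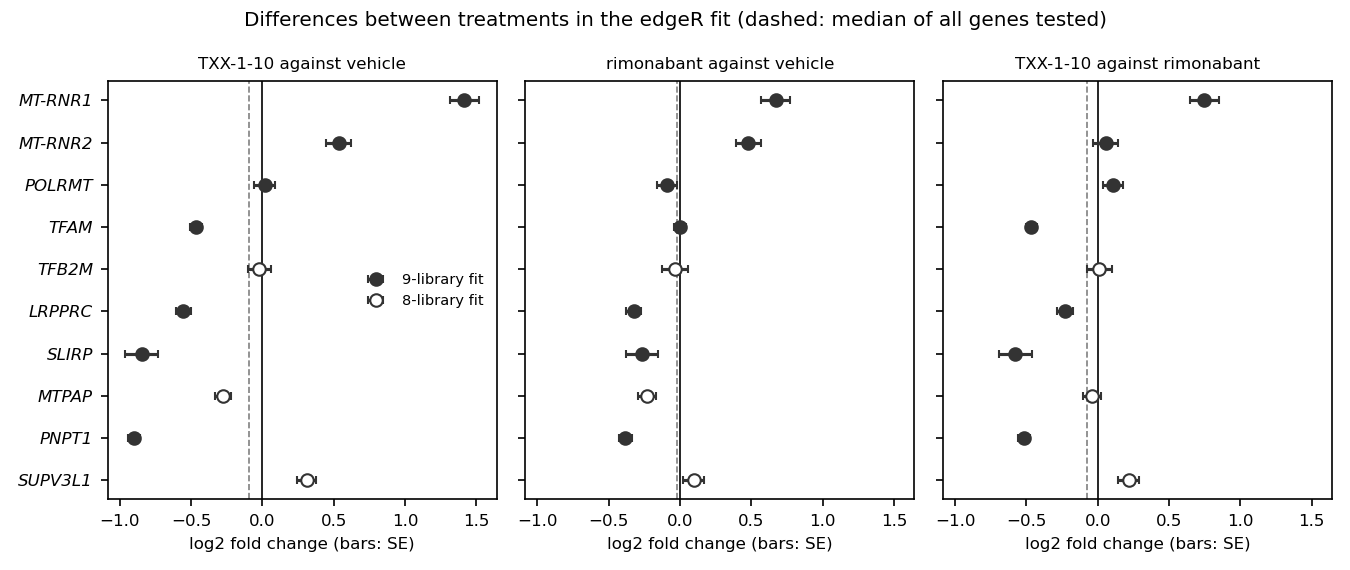
log2 fold change (bars: SE) of the 10 genes in the edgeR fit for the 3 comparisons, with filled points from the fit of 9 libraries, open points from the fit of 8 libraries and the median of all genes as a dashed line. MT-RNR1 is the highest in each panel, and PNPT1 and SLIRP are the lowest with TXX-1-10 against vehicle.

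Other genes of mitochondrial RNA metabolism were followed in 6 lists of nuclear genes, with 79 genes found in the files and 68 tested in the fit of 8 libraries, which has 2 rimonabant libraries. With TXX-1-10 against vehicle, 10 rose, 34 fell and 24 did not pass at an adjusted p of 0.05 (edgeR's quasi-likelihood test over 9369 genes), where 34.7% of all genes rose and 40.6% fell. Their median log2 fold change was -0.14, beside -0.04 for all genes. With rimonabant against vehicle, 7 rose, 19 fell and 42 did not pass, where 23.7% of all genes rose and 22.8% fell. With the 13 mRNAs of chromosome MT included, 29 genes passed in this comparison. It has only 2 rimonabant libraries, and leaving either out leaves a single one. Such fits cannot tell whether the count depends on a particular library. Between the compounds, 13 were higher and 26 lower with TXX-1-10 past the test, where 26.7% and 33.9% of all genes were.

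RNA processing and decay, without the members, had the lowest median of the 6 lists with each compound. Of 18 genes tested, 13 fell with TXX-1-10, 1 rose and 4 did not pass, with a median log2 fold change of -0.45, and 9 fell with rimonabant, 0 rose and 9 did not pass, with a median of -0.25. ELAC2, the nuclease that cuts the 3′ end of tRNAs out of the precursors, went from 24.2 ± 1.2 FPKM (SD, n = 3) with vehicle to 13.9 ± 0.126 with TXX-1-10 (log2 fold change -0.80, SE 0.05, adjusted p = 3.15e-08) and fell by 0.37 with rimonabant (adjusted p = 0.000321). TRNT1, which adds the CCA end to tRNAs, fell by 0.87 with TXX-1-10 (adjusted p = 6.00e-07) and by 0.62 with rimonabant (adjusted p = 0.000138). FASTKD3, of the FASTK family of mitochondrial RNA-binding proteins, fell by 1.15 (adjusted p = 8.59e-07) and 0.35 (adjusted p = 0.0223). PDE12, a nuclease that removes poly(A) tails in mitochondria, fell by 0.56 (adjusted p = 8.90e-07) and 0.35 (adjusted p = 0.000532).

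Transcription and its control went both ways. With TXX-1-10, 2 of 7 genes tested rose, 2 fell and 3 did not pass, and with rimonabant 1 rose, 1 fell and 5 did not pass. MRPL12, a ribosomal protein also described as a partner of POLRMT, fell by 1.28 on the log2 scale with TXX-1-10, from 27.4 ± 1.18 to 11.3 ± 1.39 FPKM (adjusted p = 8.58e-08), and by 0.64 with rimonabant (adjusted p = 0.000318). LONP1, the matrix protease that degrades unbound TFAM, rose from 44.9 ± 1.22 to 75.6 ± 3.6 FPKM with TXX-1-10 (log2 fold change 0.75, SE 0.05, adjusted p = 5.13e-08) and by 0.21 with rimonabant (adjusted p = 0.0099). TOP1MT, the mitochondrial topoisomerase, rose by 0.46 with TXX-1-10 (adjusted p = 8.43e-05), and MTERF4, which acts in ribosome assembly with NSUN4, fell by 0.30 (adjusted p = 0.00306).

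The genes that modify rRNA or assemble the ribosome mostly did not pass. Of 19 tested, 3 rose, 5 fell and 11 did not pass with TXX-1-10, and 3 rose, 1 fell and 15 did not pass with rimonabant, with medians of -0.03 and -0.05. MRM1 and MRM2, methyltransferases of the 16S rRNA, fell by 1.05 (adjusted p = 4.68e-06) and 0.77 (adjusted p = 2.15e-06) with TXX-1-10. NSUN4 and METTL15, methyltransferases of the 12S rRNA, rose by 0.61 (adjusted p = 7.08e-06) and 0.50 (adjusted p = 5.29e-05). With rimonabant the log2 fold changes were -0.47 for MRM1 (adjusted p = 0.00909), -0.11 for MRM2 (adjusted p = 0.324), 0.24 for NSUN4 (adjusted p = 0.0285) and 0.37 for METTL15 (adjusted p = 0.00293).

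Among the genes that modify mitochondrial tRNAs, 2 of 10 tested rose, 5 fell and 3 did not pass with TXX-1-10, and 2 rose, 2 fell and 6 did not pass with rimonabant. TRMU, which thiolates the wobble uridine, fell by 0.43 (adjusted p = 2.08e-05) and GTPBP3 fell by 0.39 (adjusted p = 9.68e-05) with TXX-1-10, while MTO1, the partner of GTPBP3 in another modification of that base, rose by 0.45 (adjusted p = 4.46e-05). TRMT5, a tRNA methyltransferase, fell by 0.37 with TXX-1-10 (adjusted p = 0.00015) and by 0.62 with rimonabant (adjusted p = 3.88e-05).

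In the maintenance of mitochondrial DNA, 6 of 8 genes tested fell with TXX-1-10, 0 rose and 2 did not pass, and with rimonabant 1 rose, 4 fell and 3 did not pass. DNA2, a nuclease and helicase also at work in the nucleus, fell by 1.33 with TXX-1-10, from 7.17 ± 0.11 to 2.85 ± 0.342 FPKM (adjusted p = 1.07e-07), and had a log2 fold change of 0.15 with rimonabant (adjusted p = 0.231). TOP3A, a topoisomerase that separates daughter molecules, fell by 0.50 with TXX-1-10 (adjusted p = 3.32e-06) and rose by 0.19 with rimonabant (adjusted p = 0.0189). RNASEH1, which removes RNA from RNA-DNA hybrids, fell by 0.68 (adjusted p = 8.06e-07) and 0.24 (adjusted p = 0.0125), and SSBP1, the single-stranded DNA binding protein, fell by 0.24 (adjusted p = 0.00792) and 0.28 (adjusted p = 0.0133).

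Nuclear regulators of this machinery split as well, with 2 of 6 up, 3 down and 1 not past the test with TXX-1-10, and 0 up, 2 down and 4 not past it with rimonabant. ESRRA, an orphan nuclear receptor, rose by 0.60 (adjusted p = 6.89e-06) and GABPA, the DNA-binding subunit of GABP, by 0.47 (adjusted p = 8.58e-05) with TXX-1-10. PPRC1 and PPARGC1B, coactivators of the PGC-1 family, fell by 0.45 (adjusted p = 0.000137) and 0.66 (adjusted p = 0.000206) with TXX-1-10. With rimonabant their log2 fold changes were -0.56 (adjusted p = 0.000248) and -0.95 (adjusted p = 0.000147).

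**Figure D5:**
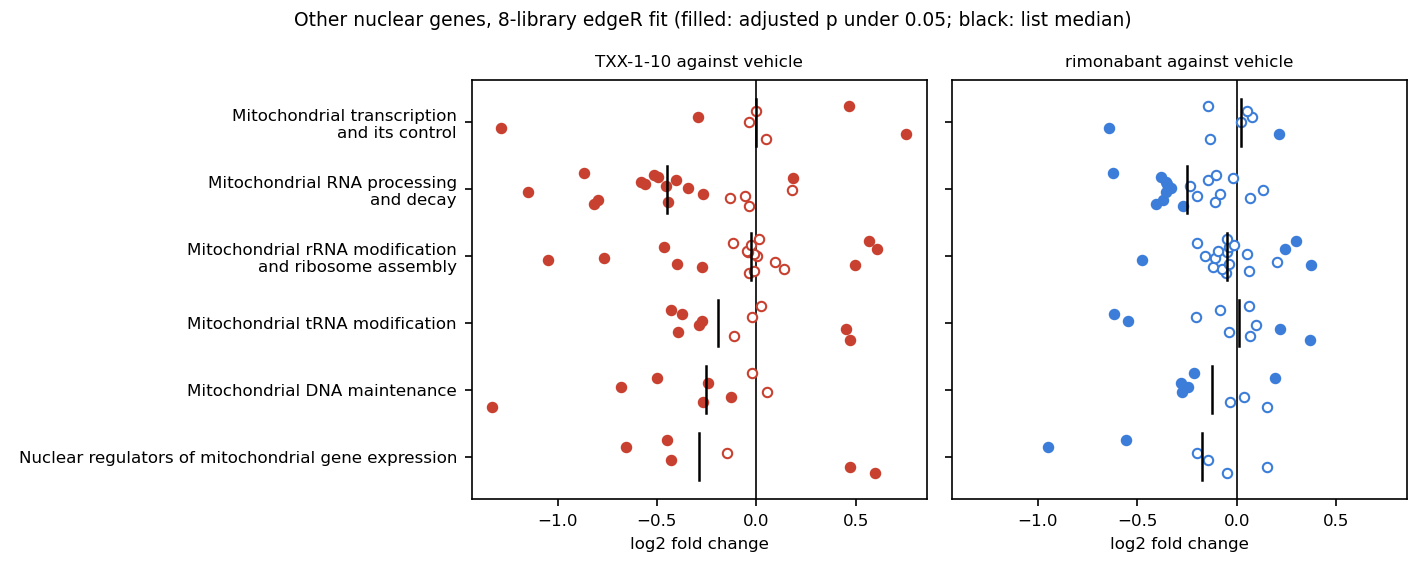
log2 fold change against vehicle of the 68 other nuclear genes tested, by list, for TXX-1-10 (left) and rimonabant (right), filled where the adjusted p was under 0.05 and with the list median as a black bar. The list of RNA processing and decay lies lowest of the 6 with each compound, at medians of -0.45 and -0.25.

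The genes whose level followed a member most closely were taken from the 4236 genes, by Pearson's r of log2(FPKM + 1) over the 9 libraries, which share treatment groups and depth. For MT-RNR1 they included MKRN1, RAP2B, TIMP1 and LGALS3, with r from 0.997 to 0.999. TIMP1, an inhibitor of metalloproteases, for example went from 75.3 ± 4.59 FPKM (SD, n = 3) with vehicle to 110.3 ± 11.3 with rimonabant and 184.4 ± 23.1 with TXX-1-10. For MT-RNR2 they were TMEM38B, PRXL2A, SLC35E1, TMEM263 and ATF4, with r from 0.986 to 0.988. ATF4, a transcription factor of the integrated stress response, was at 112.3 ± 2.82, 168.3 ± 14.7 and 172.3 ± 18.8 FPKM. For LRPPRC they were ACTR2, ASPH, ADAM10, NT5E and SEPTIN10, with r from 0.988 to 0.992. ADAM10, a membrane metalloprotease, went from 12.6 ± 0.34 FPKM with vehicle to 8.85 ± 0.73 and 6.52 ± 0.0394.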

How the data were processed

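Total RNA was extracted with Trizol, selected with oligo(dT) and made into NEBNext Ultra libraries. Per the submitters' processing notes, HISAT2 2.0.5 and featureCounts 1.5.0-p3 were used, and strand setting and genome build are not given in the sources used here. Gene coordinates equal those of GENCODE 29 (GRCh38). The authors deposited raw counts per gene without normalization. The FPKM values they deposited are these counts divided by gene length and a total, which was worked back for each library and served as library size. Lists end at different points of a common order, each in a broken line that was dropped, so 4237 genes are listed for all 9 libraries, and 9397 for all but rimonabant replicate 1.

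Counts were fitted with edgeR 4.0.16 in R 4.3.3 (glmQLFit, glmQLFTest, Benjamini-Hochberg within a comparison), on 4236 or 9369 genes with a mean FPKM of at least 1. The biological coefficient of variation (common) was 0.0696, and standard errors, which are approximate, were derived from the F statistic. The fit was tested on simulated counts. Members and gene lists were chosen with earlier results of these data known. All members are named, and from each list up to 4 genes with the smallest adjusted p for TXX-1-10 against vehicle among those past the test, any gene past it in opposite directions under the compounds, and for 3 members the 5 genes of most similar level, of which 1 is not reported here. Genes named outside this rule (other mRNAs of chromosome MT, SNW1, nuclear rRNA copies) were chosen after their values were seen. Alternatives were TMM, DESeq2 1.42.0, limma 3.58.1 on log2(FPKM + 1) or log2(FPKM + 0.1), other library sizes and filters, a gene length offset (lowess span 0.3), the replicate block, fits of 2 groups and leaving out libraries. Counts of the members in a library ran from 539 (TFB2M) to 193815 (MT-RNR2), so the precision is lowest for the genes with few counts. Tables and figures used matplotlib 3.10.9, scipy 1.17.1, pandas 2.3.3 and numpy 2.4.6 in Python 3.11.15.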

Additional observations from a re-analysis of the deposited data

How the results depend on the processing

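Over 672 values of the 10 genes under the alternatives, 607 moved by less than the spread between replicates and 65 by more, and the differences whose sign varied were those near 0 (TFB2M in all 3 comparisons, POLRMT for TXX-1-10 against vehicle, TFAM for rimonabant against vehicle, and MT-RNR2 and MTPAP between the compounds). For TXX-1-10 against vehicle, MT-RNR1 ranged from 1.32 to 1.59 on the log2 scale, MT-RNR2 from 0.46 to 0.71, PNPT1 from -0.95 to -0.73, SLIRP from -0.92 to -0.68, LRPPRC from -0.60 to -0.38, TFAM from -0.51 to -0.29, MTPAP from -0.32 to -0.14 and SUPV3L1 from 0.25 to 0.45. The smallest sizes of the lower genes, and the largest of the higher ones, came with library sizes taken from the fitted genes, under which TFAM (-0.47 as reported) and MTPAP (-0.27) moved by over 1.5 times. MT-RNR2 between the compounds reached 0.21 with the gene length offset, and the cause was not tested. Library sizes taken from the fitted genes moved the median of all genes from -0.09 to 0.08 for TXX-1-10 against vehicle. With these library sizes, 264 of 500 genes called (a log2 fold change of 1 or more in size with an adjusted p under 0.05) were higher, in place of 178 of 500, and between the compounds 92 of 240 in place of 67 of 251. Of the pathway genes past the test between the compounds, 18 of 48 were higher with these library sizes, in place of 14 of 51. Fitting 8 libraries in place of 9, which tests more genes, called 1187 genes in place of 500 for TXX-1-10 against vehicle, 140 in place of 48 for rimonabant against vehicle and 601 in place of 251 between the compounds. Fitting 9 in place of 8, which tests fewer, left 29, 13 and 29 pathway genes past the test in place of 56, 29 and 51 of 81, in the same order. Without single libraries, the pathway genes past the test were 54 to 58 for TXX-1-10 against vehicle, 14 to 40 for rimonabant against vehicle (14 without rimonabant replicate 2 and 19 without rimonabant replicate 3, where 1 rimonabant library is left and assumed to vary like the others) and 39 to 61 between the compounds. The genes called were 496 to 512, 47 to 52 and 245 to 260. Whether replicate numbers pair the libraries is not settled. Deviations from the group mean in same-numbered libraries had correlations from -0.07 to 0.04 between a compound and vehicle. Between the compounds these ran from -0.79 to 0.83. There the 2 libraries with more reads on short genes carry different numbers, so these correlations cannot decide it. With the replicate block 501, 48 and 250 genes were called and 56, 27 and 49 pathway genes passed. Genes with few reads were not tested, since only genes listed for 8 or 9 libraries entered a fit.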
